A study of Ovis aries with 12 samples.

Results

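SOX2, SOX3, PAX6 and NEUROD4, 4 transcription factor genes of the early nervous system, were followed in bulk RNA-seq of sheep embryos. They are the ones found of 9 listed neural progenitor and proneural factors, in a deposited table of 26247 genes. SOX2 and PAX6 stood there under their symbols, which is the rule that chose the set. SOX3 and NEUROD4 stood under an Ensembl identifier, with a description and an NCBI gene number that gave them their names. SOX1, NEUROG1, NEUROG2, NEUROD1 and NHLH1 were found by neither route and were not analysed here. The embryos came from Hulunbuir Short-tail Sheep, the experimental breed, and from Ujumqin sheep, the control breed, at 16 and at 25 days, with 3 libraries in each of the 4 groups. No agent, allele or sex is given for any group, and all embryos had been digested enzymatically to cell suspensions before RNA was taken. Whether the 3 libraries in a group stem from different embryos or ewes is not stated, so the p-values reflect only how far these samples differ from each other, and that spread may be technical.

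In vertebrate embryos the SOXB1 factors SOX1, SOX2 and SOX3 mark the neural plate and then the dividing progenitors of the neural tube, and hold back neuronal differentiation. PAX6 divides the neural tube into progenitor domains and is needed for the eye and forebrain. Proneural basic helix-loop-helix (bHLH) factors such as the neurogenins commit progenitors to a neuronal fate through E-box sites, together with E proteins. Later bHLH factors, NEUROD4 and NEUROD1 among them, act as the new neurons differentiate. SOX2 and SOX3 are also active in the epiblast, SOX2 in the foregut, and PAX6 in lens and endocrine pancreas.

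Gene positions follow the Oar_v3.1 build. SOX2 (ENSOARG00000014598) lies on chromosome 1, minus strand, 203532281 to 203533162. SOX3 (ENSOARG00000009998) lies on chromosome X, plus strand, 89736013 to 89736585. PAX6 (ENSOARG00000016191) lies on chromosome 15, minus strand, 60762179 to 60783553. NEUROD4 (ENSOARG00000018394) lies on chromosome 3, minus strand, 164906707 to 164907699. None of the 4 overlapped another gene of the deposited table (0 overlapping genes for each), and the nearest neighbour was 1845 bases away, beside SOX2. How reads matching more than 1 gene were counted is not given in the sources used here.

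Total counts per library lay between 30464606 and 55455815. The day 16 libraries differed more among themselves than the day 25 libraries, with a common biological coefficient of variation of 43.8% over 6 libraries against 18.1%. Breed differences were therefore fitted within the 6 libraries of an age, and age differences over all 12 libraries. All 4 genes passed the filter of at least 1 FPKM (fragments counted relative to gene length and library size) in at least 3 libraries. SOX2 reached 1 FPKM in 12 libraries, SOX3 and PAX6 in 11 each. NEUROD4 did so in 4 libraries only, and 3 of these were the Hulunbuir day 25 libraries in which it was highest, so its passing the filter is not independent of its pattern. 1 library stood apart for these genes, Hulunbuir day 16 replicate 2, and results that rest on it are given with and without it.

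SOX2, which maintains neural progenitors, had the highest FPKM of the 4 genes in each of the 12 libraries. That rank depends on the gene lengths used for FPKM, and the SOX2 entry spans 882 bases. PAX6 had more counts than SOX2 in Ujumqin day 16 replicates 2 (92 against 85) and 3 (337 against 301). The same held in Ujumqin day 25 replicates 2 (550 against 457) and 3 (480 against 463). In Ujumqin day 16 embryos SOX2 was at 4.6, 1.76 and 5.79 FPKM in replicates 1, 2 and 3. In Hulunbuir day 16 embryos it was at 15.0, 2.46 and 28.9 FPKM. These groups overlapped, since Hulunbuir replicate 2 lay below 2 of the 3 Ujumqin libraries. At day 25 SOX2 was at 24.1, 15.5 and 14.3 FPKM in Ujumqin libraries and at 31.2, 33.4 and 29.9 FPKM in Hulunbuir. There the 3 Hulunbuir libraries were all above the 3 Ujumqin libraries, as held for 49.1% of all genes tested, and much closer to each other. By mean, the order of levels was Ujumqin day 16 (4.05 ± 2.07 FPKM, SD, n = 3), Hulunbuir day 16 (15.5 ± 13.2), Ujumqin day 25 (17.9 ± 5.33) and Hulunbuir day 25 (31.5 ± 1.80). Hulunbuir day 16 overlapped both of its neighbours in that order.

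SOX3, the X-linked SOXB1 factor of the neural plate and pituitary, was at 2.06, 1.43 and 3.20 FPKM in Ujumqin day 16 libraries. In Hulunbuir day 16 libraries it was at 5.59, 0.333 and 8.63 FPKM. Replicate 2 was again the low one, with 8 counts against 150 and 203 in the other 2. At day 25 SOX3 was at 4.66, 5.99 and 3.22 FPKM in Ujumqin and at 13.0, 15.5 and 17.5 FPKM in Hulunbuir. Each Hulunbuir day 25 library was thus above each of the other 9 libraries. The share of all genes for which this held was not counted. Against Ujumqin day 25 alone it held for 49.1% of all genes tested, and against Hulunbuir day 16 alone for 33.4%. The means were 2.23 ± 0.896 FPKM (SD, n = 3) in Ujumqin day 16, 4.62 ± 1.39 in Ujumqin day 25, 4.85 ± 4.20 in Hulunbuir day 16 and 15.3 ± 2.25 in Hulunbuir day 25. The middle pair of groups in that order overlapped.

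PAX6, the paired-box factor of eye and neural tube, was at 1.80, 1.03 and 3.53 FPKM in Ujumqin day 16 embryos. In Hulunbuir day 16 embryos it was at 3.55, 0.318 and 15.6 FPKM, a 49.0-fold range within 1 group. At day 25 it was at 11.0, 10.1 and 8.08 FPKM in Ujumqin and at 15.1, 13.2 and 15.1 FPKM in Hulunbuir. The day 25 groups did not overlap, as held for 49.1% of all genes tested with Hulunbuir higher. Hulunbuir replicate 3 of day 16 already lay above all day 25 libraries of the same breed. The means were 2.12 ± 1.28 FPKM (SD, n = 3) in Ujumqin day 16, 6.49 ± 8.06 in Hulunbuir day 16, 9.74 ± 1.51 in Ujumqin day 25 and 14.5 ± 1.13 in Hulunbuir day 25.

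NEUROD4, a bHLH factor of differentiating neurons, was near the limit of detection at day 16. The Ujumqin day 16 libraries held 0, 0 and 25 counts of it, and those of Hulunbuir 4, 0 and 21. A count of 0 allows up to 3 counts, which correspond to 0.0559, 0.0547 and 0.0643 FPKM in the 3 libraries concerned (counting error only). In each breed replicate 3 was the only day 16 library with more than 4 counts, at 0.418 and 0.433 FPKM. At day 25 NEUROD4 was at 0.985, 0.584 and 1.24 FPKM in Ujumqin and at 3.67, 6.09 and 5.75 FPKM in Hulunbuir. The lowest Hulunbuir day 25 library was above the highest of the other 9 libraries. As for SOX3, the share of all genes for which this held was not counted, and NEUROD4 passed the filter through this group.

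**Figure D1:**
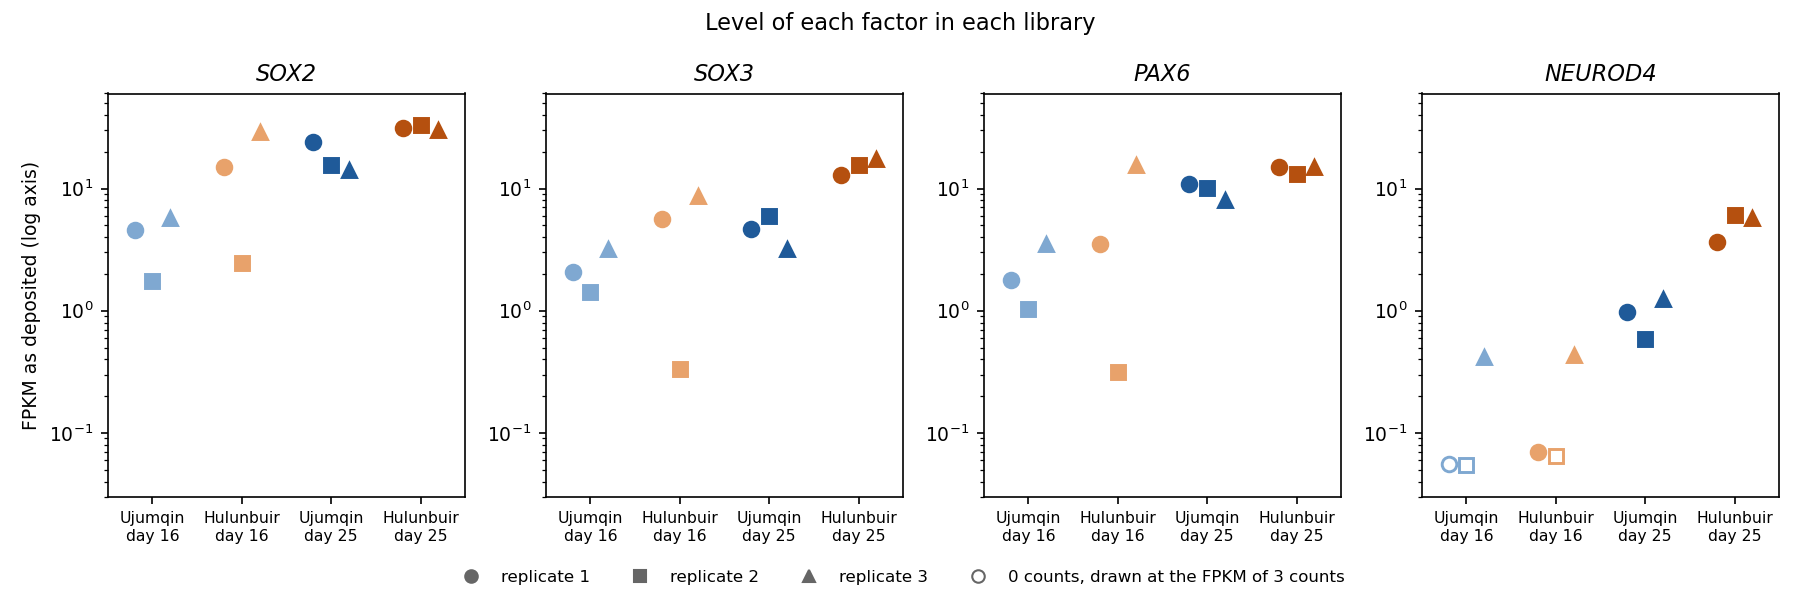
FPKM as deposited, on a log axis, of SOX2, SOX3, PAX6 and NEUROD4 in each of the 12 libraries, by breed and age; the symbol shape gives the replicate number and open symbols are libraries with 0 counts, drawn at the FPKM that 3 counts would give. Hulunbuir day 16 replicate 2 (square) is low for all 4 genes. The 3 Hulunbuir day 25 libraries lie above the 3 Ujumqin day 25 libraries in each panel, as held for 49.1% of all genes tested.

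The spread at day 16 was shared by the genes. In both breeds replicate 3 held the highest and replicate 2 the lowest level of SOX2, SOX3 and PAX6. Some other neural genes followed the same order, but not all. The dorsal progenitor factor gene OLIG3 was lowest in Ujumqin replicate 1, at 0.208, 0.313 and 0.606 FPKM in replicates 1 to 3. NES, the intermediate filament gene of neural progenitors, was at 78.0, 27.6 and 81.0 FPKM in Ujumqin replicates 1 to 3 and at 177, 74.2 and 227 FPKM in those of Hulunbuir. The neural tube factor gene ZIC1 had 38, 0 and 148 counts in the 3 Hulunbuir day 16 libraries. Over 28 neural patterning factors the mean log2(FPKM + 1) was 1.06, 0.53 and 1.68 in Hulunbuir day 16 replicates 1, 2 and 3, against 0.71, 0.57 and 0.81 in Ujumqin. The order of replicates was not particular to neural genes. By the same measure E protein genes had it in Ujumqin (4.39, 3.85 and 4.72 in replicates 1 to 3) and Hulunbuir (4.44, 4.09 and 5.18). Yolk sac and liver genes had it in Ujumqin (9.14, 9.06 and 10.20) but not in Hulunbuir (6.52, 8.18 and 6.77). Trophoblast genes had the reverse order in Ujumqin (5.87, 6.41 and 4.58). In bulk embryo RNA, fewer neural cells and less RNA of a gene per cell cannot be told apart.

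Between the breeds at day 16, mean levels of SOX2, SOX3 and PAX6 were higher in Hulunbuir, but no difference passed the test. SOX2 had a log2 change of 1.77 ± 0.77 (Hulunbuir minus Ujumqin, with standard error; adjusted p = 0.257), SOX3 of 0.96 ± 0.91 (0.576), PAX6 of 1.41 ± 1.07 (0.48) and NEUROD4 of 0.09 ± 1.84 (0.985). Unless another tool is named, these p-values come from the quasi-likelihood test of edgeR, adjusted by Benjamini-Hochberg over 14595 genes, and a gene is called where its value is under 0.05. With edgeR 0 of 4 were called and 0 of 4 had an unadjusted p under 0.05 (SOX2 had 0.0548), beside 0.0206% of all genes called. On other fits, limma on log2(FPKM + 1), voom with a weight per group and edgeR over 12 libraries also called 0 of 4, although the 12-library fit called 16.8% of all genes. DESeq2 called 0 of the 3 genes to which it gave an adjusted p (SOX2 at 0.0954) and gave none for NEUROD4. None of the 4 (0) had breed groups that did not overlap, against 13.2% of all genes with Hulunbuir higher in that way. The replicate number as a block raised the count over all genes from 3 to 293 and called 0 of the 4. Between same-numbered libraries SOX2 was higher in Hulunbuir in 3 of 3 pairs. In the pair of replicate 2, SOX3 (1.43 and 0.333 FPKM in Ujumqin and Hulunbuir) and PAX6 (1.03 and 0.318) were lower in Hulunbuir. The share of all genes higher in each pair was not counted, so the pairs of SOX2 are not a separate result. With the block the log2 change of SOX2 was 1.45 ± 0.37 (adjusted p = 0.1), that of PAX6 0.52 ± 0.75 (0.684) and that of SOX3 0.39 ± 0.82 (0.786).

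The day 16 values rest on single libraries. Without Hulunbuir replicate 2, SOX2 had a log2 change of 2.28 ± 0.51 (adjusted p = 0.114), PAX6 of 1.99 ± 0.68 (0.182) and SOX3 of 1.52 ± 0.51 (0.176). Without Hulunbuir replicate 3, the change of PAX6 turned to -0.17 ± 0.96 and that of SOX2 was 1.08 ± 0.78. The erythroid list, 10 genes of red cell precursors, had a mean log2(FPKM + 1) of 4.28 to 5.79 in Ujumqin day 16 libraries and of 2.03 to 2.84 in Hulunbuir ones. Yolk sac and liver genes were at 9.06 to 10.20 and at 6.52 to 8.18. In each of these 2 lists of 10 genes the 6-library fit called 0, and the 12-library fit called 8 lower in Hulunbuir. The part of these list differences in the neural values was not tested.

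At day 25, SOX3 and NEUROD4 were higher in Hulunbuir than in Ujumqin embryos, and SOX2 by a smaller amount. NEUROD4 rose most, with a log2 change of 2.10 ± 0.35 (4.29-fold, adjusted p = 0.00158). SOX3 rose with a log2 change of 1.39 ± 0.26 (2.63-fold, adjusted p = 0.003). SOX2 rose with a log2 change of 0.49 ± 0.16 (1.41-fold, adjusted p = 0.037). PAX6 was not called, at 0.25 ± 0.12 (1.19-fold, adjusted p = 0.131). So 3 of 4 were called higher and 0 lower, where 23.3% of all genes were called higher and 22.7% lower. NEUROD4 passed the filter through the Hulunbuir day 25 libraries, where it was highest, so its call is not independent of the filter. With at least 5 FPKM in 3 libraries, which NEUROD4 did not reach, 2 of 3 were called. All 4 had FPKM groups that did not overlap, but so did 49.1% of all genes with Hulunbuir higher.

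The day 25 calls depend on using the spread of the day 25 libraries. With 1 spread shared over 12 libraries, which called 16.7% of all genes, 0 of 4 were called: NEUROD4 had 2.06 ± 1.17 (adjusted p = 0.247), SOX3 1.35 ± 0.71 (0.211) and SOX2 0.45 ± 0.59 (0.633). SOX2 also lost its call by voom (0.133) and without Ujumqin replicate 2 or 3 or any 1 of the 3 Hulunbuir replicates (0.0708 to 0.118). SOX3 and NEUROD4 kept theirs without each library in turn. The deposited FPKM carry a shift at day 25: over all genes tested the median breed difference on log2(FPKM + 1) was 0.29, against 0.03 in the count fit. On that scale PAX6 was called too, at 0.53 ± 0.13 (adjusted p = 0.0118), as it was on counts scaled by library total (0.0087).

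**Figure D2:**
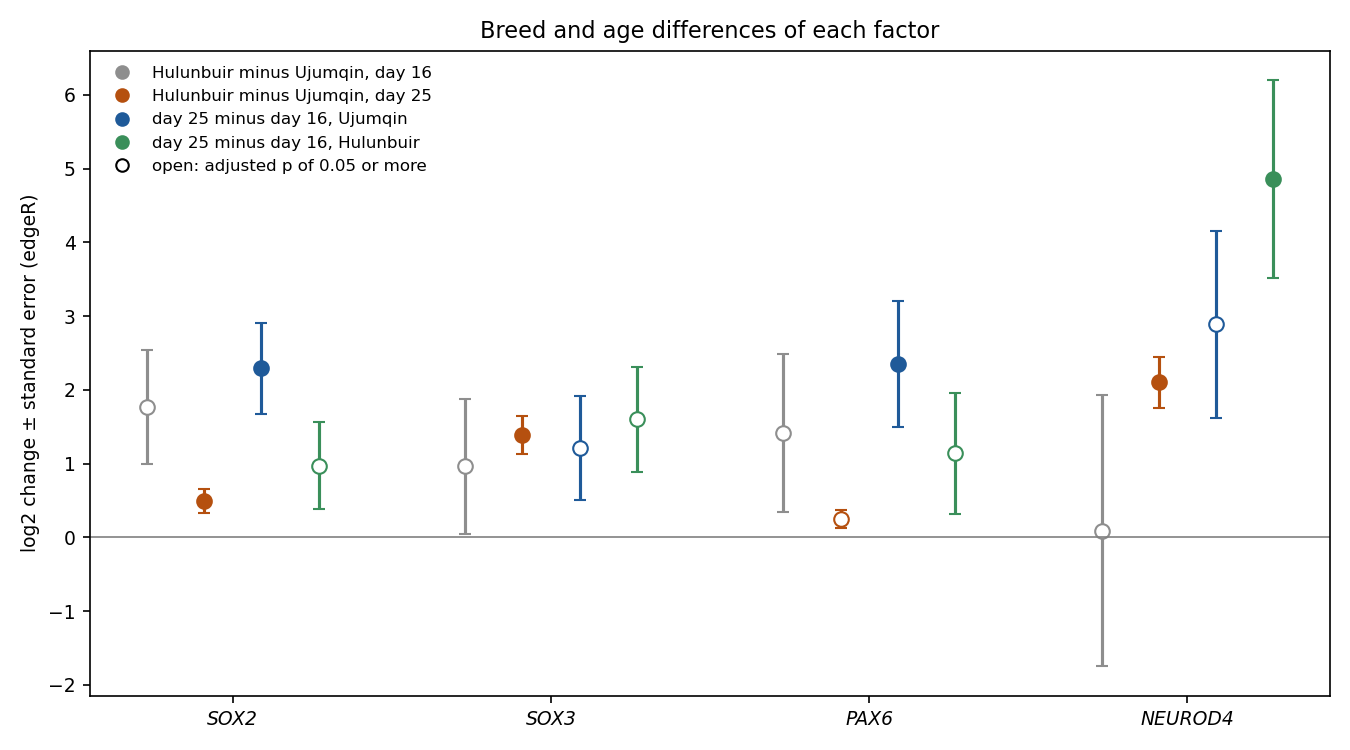
Log2 change with its standard error from edgeR for each of the 4 genes: Hulunbuir minus Ujumqin at each age (6 libraries per fit) and day 25 minus day 16 in each breed (12 libraries). Filled points have an adjusted p under 0.05; the standard errors of the breed differences are smaller at day 25 than at day 16 for each gene.

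Ratios between the factors were compared within libraries. With 3 libraries in each group none could pass the test used, so its outcome decides nothing. SOX3 per SOX2, the ratio of their FPKM in a library, was 0.194, 0.388 and 0.225 in Ujumqin day 25 libraries and 0.415, 0.463 and 0.584 in Hulunbuir ones. At day 16 the order of the breeds was the other way round, with 0.448, 0.81 and 0.552 in Ujumqin and 0.371, 0.135 and 0.298 in Hulunbuir. Neither pair of groups overlapped, and the day 16 groups stay apart without Hulunbuir replicate 2. NEUROD4 per SOX2 was 0.0409, 0.0378 and 0.0869 in Ujumqin day 25 libraries and 0.118, 0.182 and 0.192 in Hulunbuir ones, again with no overlap. PAX6 per SOX2 overlapped between breeds at both ages, at 0.458 to 0.655 and 0.394 to 0.506 at day 25. An exact two-sided permutation test of 3 against 3 libraries cannot give a p under 0.1, and a p of 0.1 says only that the groups did not overlap. SOX3 per SOX2 reached 0.1 in all 4 comparisons of groups and NEUROD4 per SOX2 at day 25 (adjusted p = 0.18 over 9 ratio tests), whereas PAX6 per SOX2 gave 0.2 to 0.7.

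**Figure D3:**
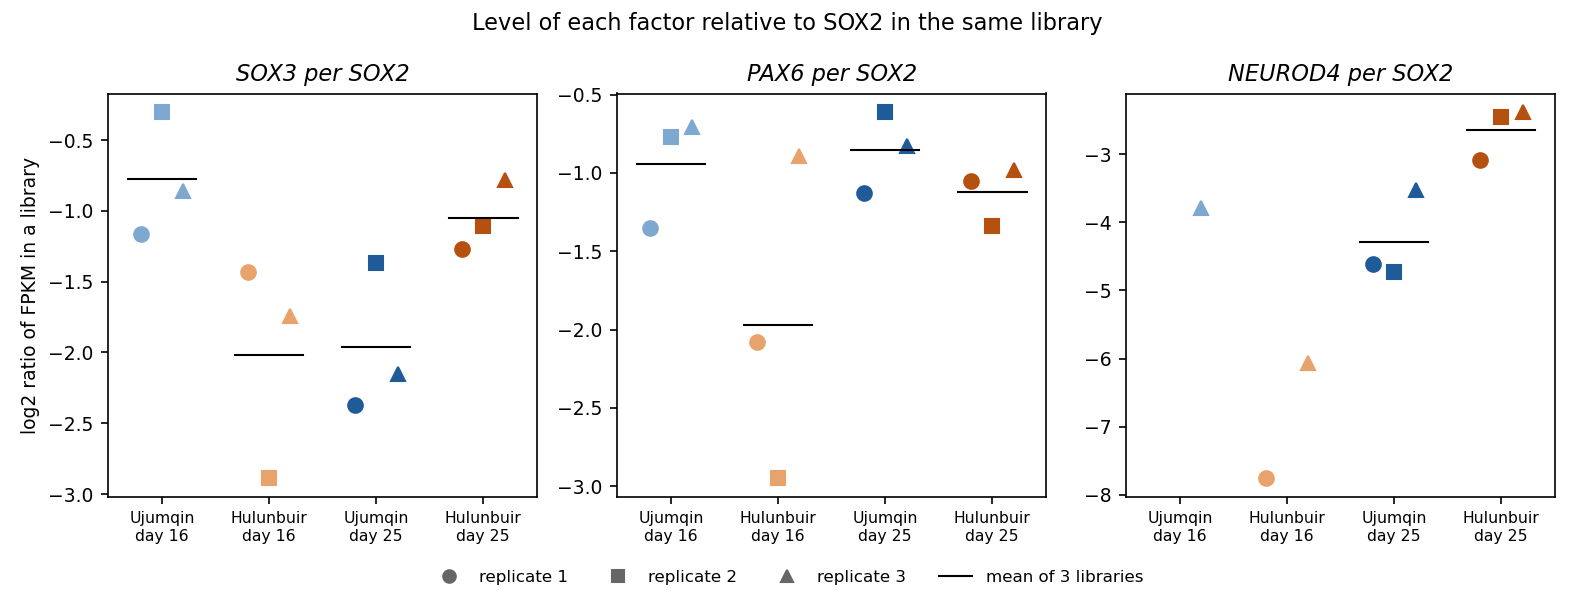
Log2 ratio of the FPKM of SOX3, PAX6 and NEUROD4 to that of SOX2 in the same library, by breed and age; horizontal lines are means of 3 libraries, and libraries with 0 NEUROD4 counts are not drawn. The SOX3 ratio is lower in Hulunbuir at day 16 and higher at day 25, while the PAX6 ratios overlap between breeds.

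From day 16 to day 25 in Ujumqin embryos, SOX2 and PAX6 rose. SOX2 had a log2 change of 2.29 ± 0.62 (4.89-fold, adjusted p = 0.00741) and PAX6 of 2.35 ± 0.86 (5.10-fold, adjusted p = 0.0314). SOX3, at 1.21 ± 0.71 (adjusted p = 0.158), and NEUROD4, at 2.89 ± 1.27 (adjusted p = 0.0654), were not called. The count of 2 of 4 higher stands beside 30.7% of all genes called higher and 32.9% lower. None of the 4 genes (0) overlapped between the ages, as held for 30.9% of all genes with day 25 higher. PAX6 lost its call without Ujumqin day 16 replicate 1 or 2 or any of the 3 Ujumqin day 25 replicates (0.0542 to 0.0917). Without Hulunbuir day 16 replicate 2, which enters through the shared spread, all 4 were called (SOX3 at 0.015, NEUROD4 at 0.0471). NEUROD4 was also called by DESeq2 (0.0399), limma (0.0154) and voom (0.0401), and without replicate 3 of day 16 in Hulunbuir (0.0468) or in Ujumqin (0.00216), where the 2 Ujumqin libraries left had 0 counts.

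In Hulunbuir embryos NEUROD4 rose with age, with a log2 change of 4.86 ± 1.34 (29.0-fold, adjusted p = 0.0144). SOX3 had 1.60 ± 0.71 (adjusted p = 0.0928), SOX2 0.97 ± 0.59 (0.21) and PAX6 1.14 ± 0.82 (0.285), and these were not called. The 1 of 4 called higher stands beside 18.9% of all genes higher and 21.6% lower. That 1 is NEUROD4, which passed the filter through the Hulunbuir day 25 libraries, so its call is not independent of the filter. SOX2, SOX3 and NEUROD4 did not overlap between the ages, as held for 33.4% of all genes with day 25 higher. By voom with a weight per group all 4 were called, at 0.0137 to 0.0445, and DESeq2 (0.0484) and limma (0.0202) called SOX3 beside NEUROD4. Without Hulunbuir day 16 replicate 2, the changes of SOX3, SOX2 and PAX6 were 1.07 ± 0.40, 0.50 ± 0.41 and 0.60 ± 0.53, none called. Without replicate 3, NEUROD4 had a log2 change of 6.75 ± 1.67 (adjusted p = 0.0104), and PAX6 had one of 2.72 ± 0.76 and was called (0.0179).

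Whether the age change differed between breeds was tested as an interaction (Hulunbuir change minus Ujumqin change). SOX2 had -1.32 ± 0.84 (adjusted p = 0.285), PAX6 -1.21 ± 1.16 (0.487), SOX3 0.39 ± 0.99 (0.817) and NEUROD4 1.96 ± 1.74 (0.452). With edgeR 0 of 4 were called, and 0 had an unadjusted p under 0.05, beside 19.2% of all genes called. DESeq2 and voom also called 0, and limma on log2(FPKM + 1) called NEUROD4 (0.0085). SOX2 was called without Hulunbuir day 16 replicate 2, at -1.75 ± 0.54 (0.0429). The calls in 1 breed and not in the other are therefore not shown to differ.

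Genes that act beside or after these factors were taken from lists. Their counts stand against the shares of all genes given above: 30.7% higher and 32.9% lower with age in Ujumqin, 18.9% and 21.6% in Hulunbuir, and 23.3% and 22.7% between breeds at day 25. Counts between breeds at day 25 depend on the scaling, as the deposited FPKM are shifted, so those on log2(FPKM + 1) are given too where they differ from those on counts. Of the neural plate and tube patterning factors, in Ujumqin 16 of 23 tested were called higher with age and 0 lower, with a median log2 change of 2.19 against -0.07 over all genes. In Hulunbuir 7 were higher and 0 lower (median 1.18 against -0.04), with 16 not called, and 5 to 10 were higher when 1 library was left out. ZIC1 went from 0.857 ± 0.39 to 38.2 ± 10.6 FPKM in Ujumqin (adjusted p = 0.00031) and from 1.08 ± 1.38 to 51.1 ± 2.92 in Hulunbuir (0.000838). LHX2, a forebrain and eye field factor, rose in both breeds, with log2 changes of 2.78 ± 0.46 and 1.34 ± 0.44. Between breeds at day 25, 4 of 23 were higher in Hulunbuir and 5 lower on counts, but 8 and 1 on log2(FPKM + 1), so this list has no direction that holds on both scales. The 4 became 1 without Hulunbuir replicate 1, 2 without replicate 3 and 7 without Ujumqin replicate 1, and the 5 became 3 without Hulunbuir replicate 1 or 2 or Ujumqin replicate 3. In the 12-library fit 1 was higher and 1 lower.

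Other genes of neural progenitors moved less uniformly. With age 7 of 14 were higher and 0 lower in Ujumqin (median 1.04 against -0.07 over all genes), and 7 higher and 2 lower in Hulunbuir (median 0.69 against -0.04). The 7 in Hulunbuir became 3 or 4 without any 1 of the 3 Hulunbuir day 25 libraries. Between breeds at day 25, 6 were higher in Hulunbuir and 3 lower, 8 and 2 on log2(FPKM + 1), and 2 and 2 in the 12-library fit. NES, at 156 ± 7.90 FPKM in Ujumqin and 274 ± 4.10 in Hulunbuir, was called higher (log2 change 0.48 ± 0.08, adjusted p = 0.00171). FABP7, the fatty acid binding protein gene of radial glia, was called lower, at 125 ± 12.5 and 70.1 ± 2.40 FPKM (-1.17 ± 0.11, adjusted p = 0.00011). VIM was called lower too, at 1970 ± 116 and 1510 ± 13.9 FPKM (-0.71 ± 0.07, adjusted p = 0.000129). So SOX2 and SOX3 shared their direction at day 25 with NES and not with FABP7 or VIM.

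Of 13 other proneural and neuronal bHLH genes, 7 were found and 4 tested. ATOH1, the factor of the dorsal hindbrain and inner ear, had 0 counts in all 6 day 16 libraries and was at least 9.68-fold higher at day 25 in Ujumqin and 23.4-fold in Hulunbuir, taking 3 counts per library as the floor. It reached 1 FPKM in the 3 Hulunbuir day 25 libraries alone and so passed the filter through the group in which it is highest. With age 3 of 4 were higher in Ujumqin and 2 in Hulunbuir, with 0 lower, and the medians with genes at 0 in a group set to their bound were 2.99 and 3.31. At day 25, 2 of 4 were higher in Hulunbuir (1 without any 1 library other than Ujumqin replicate 1, 0 in the 12-library fit, 4 on log2(FPKM + 1)), OLIG3, a dorsal progenitor factor, among them (2.34 ± 0.71 and 6.80 ± 0.821 FPKM, adjusted p = 0.00651).

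E proteins are the dimer partners of these factors. TCF3 was called higher in Hulunbuir at day 25, at 12.5 ± 2.49 and 27.1 ± 0.347 FPKM (log2 change 0.80 ± 0.11, adjusted p = 0.000693), and it was 1 of 3 (3 on log2(FPKM + 1), 0 in the 12-library fit). TCF4 fell with age in both breeds (-0.91 ± 0.20 and -0.85 ± 0.20). Among HES, HEY and ID genes and REST, which restrain proneural activity, 4 of 9 were higher with age and 2 lower in Ujumqin, and 2 and 0 in Hulunbuir, where the share higher is near that of all genes. The 2 became 0 without Hulunbuir day 16 replicate 1 or any Hulunbuir day 25 library, and 1 without Hulunbuir day 16 replicate 2. At day 25 between breeds 4 were higher in Hulunbuir and 1 lower, against 6 and 1 on log2(FPKM + 1) and 1 and 0 in the 12-library fit. ID2, at 54.3 ± 3.95 and 43.3 ± 0.451 FPKM, was the lower one (-0.66 ± 0.09, adjusted p = 0.000603). Of Notch pathway genes, which limit how many progenitors differentiate, 3 of 11 were higher and 4 lower with age in Ujumqin, and 2 and 5 in Hulunbuir. The shares higher with age, and the share lower in Ujumqin, are near those of all genes. At day 25, 5 were higher in Hulunbuir and 1 lower, 10 and 1 on log2(FPKM + 1), and 0 and 1 in the 12-library fit. The 5 became 2 or 3 without any 1 library other than Ujumqin replicate 1. NOTCH3, a receptor, was at 6.92 ± 1.42 and 16.9 ± 0.62 FPKM (log2 change 0.97 ± 0.11, adjusted p = 0.000265).

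Genes that act after proneural factors, in young neurons, rose with age in both breeds. In Ujumqin 19 of 23 tested were higher and 0 lower, with a median log2 change of 2.92 (2.87 with genes at 0 set to their bound). In Hulunbuir 15 were higher and 0 lower, with a median of 2.69. NEFM, a neurofilament gene, went from 2.10 ± 0.987 to 76.0 ± 5.74 FPKM in Ujumqin and from 3.72 ± 1.51 to 136 ± 5.90 in Hulunbuir. At day 25, 14 of 23 were higher in Hulunbuir and 1 lower, with a median of 0.60 against 0.03 over all genes, and 16 and 0 on log2(FPKM + 1). The 12-library fit, by contrast, called 1 higher and 0 lower. NEFM had 0.52 ± 0.07 (adjusted p = 0.000661) and the microtubule regulator gene STMN2 -0.17 ± 0.09 (0.146). Neuron subtype factors were called higher with age in 5 of 7 tested in Ujumqin and 4 in Hulunbuir, and in 3 at day 25 between breeds (6 on log2(FPKM + 1), 0 in the 12-library fit), with 0 lower each time. ISL1, a motor and sensory neuron factor, was at 4.76 ± 0.167 and 12.1 ± 0.925 FPKM in the breeds at day 25 (1.02 ± 0.14). At day 16 the 6-library fit called 0 genes of each of these lists. The 12-library fit called 1235 of all 14595 genes higher in Hulunbuir and 1224 lower. Of the lists, it called 4 of 23 patterning factors higher and 1 lower. It called 3 of 14 progenitor genes, 3 of 9 genes of the HES, HEY, ID and REST list and 1 of 11 Notch genes higher. Among young neuron genes 4 of 23 were higher, and 2 of 7 subtype factors. The Notch share is near that of all genes. Of 4 other bHLH genes and 3 E protein genes it called 0.

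**Figure D4:**
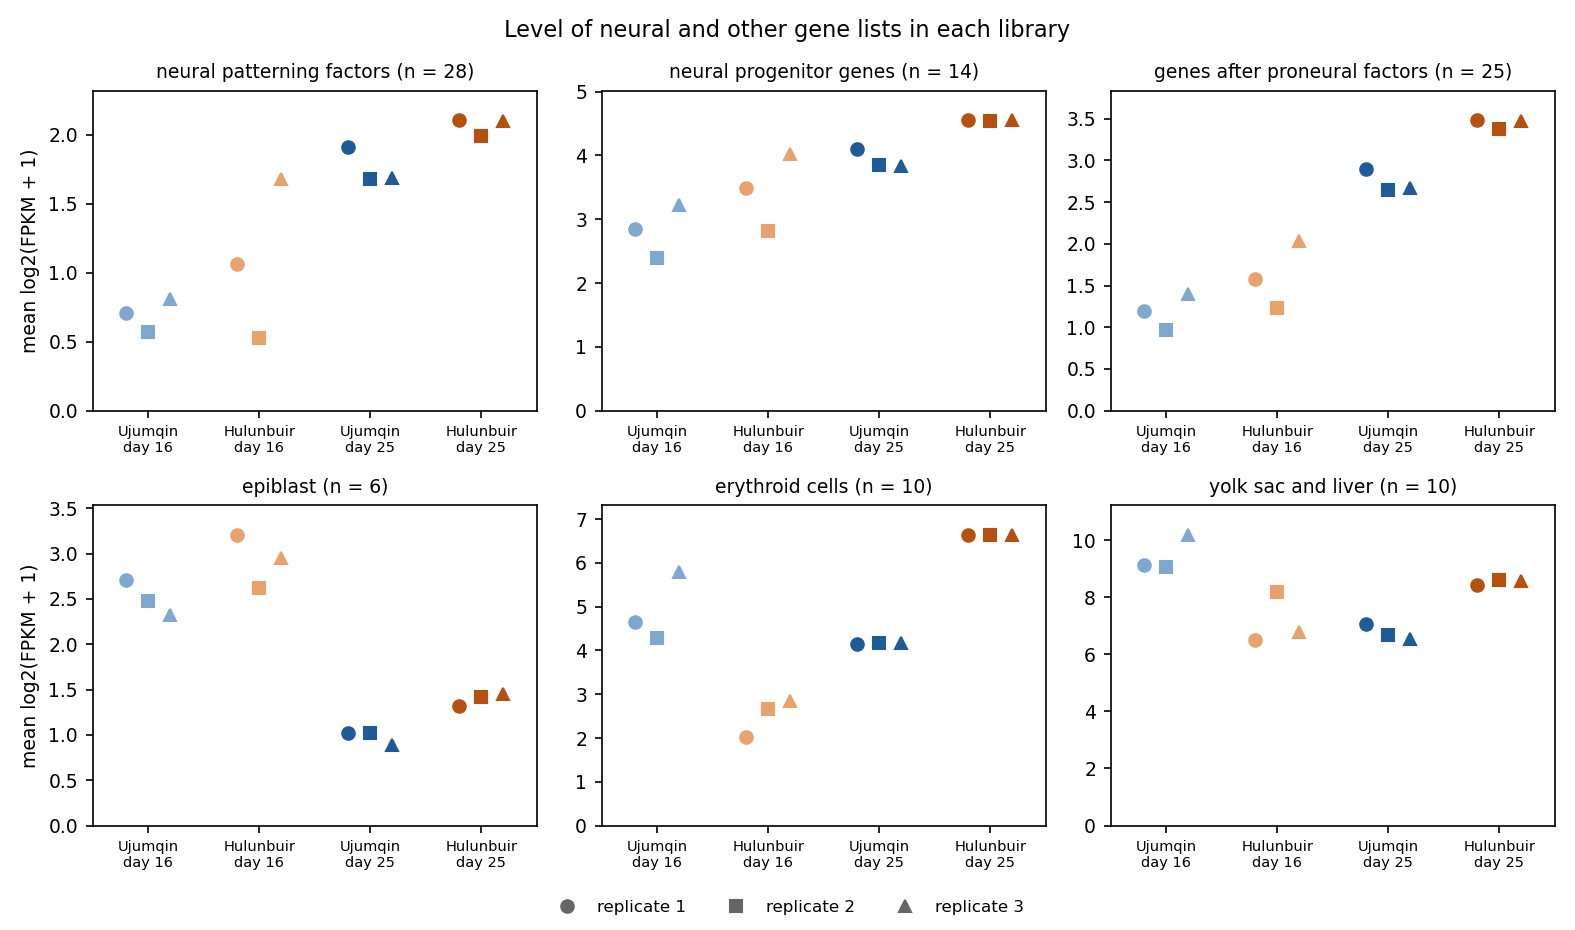
Mean log2(FPKM + 1) of gene lists in each library, by breed and age; n is the number of listed genes found in the table and the symbol shape gives the replicate number. The 3 neural lists are higher at day 25 than in most day 16 libraries, the epiblast list is lower, and the erythroid and yolk sac lists are lower in Hulunbuir at day 16 and higher at day 25.

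Markers of other tissues, some of which also use these factors, differed between the groups as well, not all in the same direction. Of the epiblast list 6 of 10 were found, with a mean log2(FPKM + 1) of 2.32 to 2.71 in Ujumqin and 2.62 to 3.21 in Hulunbuir at day 16, and of 0.89 to 1.02 and 1.32 to 1.45 at day 25. All 3 tested fell with age in both breeds, and 2 of 3 were higher in Hulunbuir at day 25, with 0 without Hulunbuir replicate 2, 1 without replicate 3, 3 on log2(FPKM + 1) and 0 in the 12-library fit. POU5F1, the pluripotency factor that partners SOX2, was at 3.92 ± 2.46 and 7.01 ± 5.44 FPKM at day 16 and at 0.301 ± 0.119 and 1.08 ± 0.551 at day 25. Endoderm and foregut genes were called lower with age in 6 of 8 tested in Ujumqin and 7 in Hulunbuir, with list levels of 2.18 to 2.34 and 2.53 to 2.63 at day 25. Cranial placode and lens genes, 18 of 19 found, were at 2.03 to 2.20 and 2.05 to 2.12 at day 25, with 4 of 16 higher and 7 lower in Hulunbuir (2 and 5 without Hulunbuir replicate 3, 5 and 6 on log2(FPKM + 1), 0 and 2 in the 12-library fit). Among endocrine pancreas genes, 9 of 12 found, GCG, which encodes glucagon, had a mean of 0.0281 ± 0.0484 FPKM for Ujumqin and 5.76 ± 0.322 for Hulunbuir at day 25, the only group through which it passed the filter, and the list was at 1.21 to 1.29 and 1.69 to 1.92. SST went the other way, at 8.07 ± 1.48 and 5.16 ± 0.583 FPKM (log2 change -0.97 ± 0.16, adjusted p = 0.00142). Of 4 endocrine genes tested, 1 was called higher in Hulunbuir and 1 lower (2 and 1 on log2(FPKM + 1), 1 and 0 in the 12-library fit). The defining genes INS and PDX1 of that list were not analysed here. Trophoblast genes were at 3.03 to 3.25 and 3.06 to 3.09 at day 25, with 0 of 8 higher and 3 lower (1 lower without Hulunbuir replicate 1 or 2 or Ujumqin replicate 2 or 3 and on log2(FPKM + 1), 0 in the 12-library fit). The erythroid list was at 4.14 to 4.18 in Ujumqin and 6.63 to 6.65 in Hulunbuir at day 25, with 9 of 10 higher, and the yolk sac and liver list at 6.55 to 7.08 and 8.44 to 8.60, also with 9 of 10 higher. On log2(FPKM + 1) both had 10 higher, and in the 12-library fit 9 and 3. The part of these tissues in the day 25 differences of SOX3 and NEUROD4 was not tested.

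Profiles over the 12 libraries were compared by the root mean square difference of log2(FPKM + 1), each gene centred on its own mean. Against the mean profile of SOX2, SOX3 and PAX6, these 3 genes themselves lay at 0.24, 0.33 and 0.25 log2 units, and the median gene with a symbol at 1.17. The distances of the 3 are small in part because the profile is their own mean. The 5 nearest other genes were SOX11 (0.25), SLIT1 (0.27), HOXA3 (0.27), RGMA (0.33) and PAX3 (0.34). SOX11, a SOXC factor of young neurons, was at 3.02, 0.907 and 5.50 FPKM in Ujumqin day 16 libraries and at 10.7, 1.82 and 22.5 in Hulunbuir ones. It was at 12.4, 12.8 and 11.9 FPKM in Ujumqin and 24.7, 22.6 and 23.7 in Hulunbuir at day 25. SOX11 was picked for its nearness to this profile, so its sharing the day 16 order of replicates with SOX2 is not a separate result. SLIT1 and RGMA encode axon guidance molecules, HOXA3 patterns the hindbrain and pharynx, and PAX3 marks the dorsal neural tube and somites. Against NEUROD4 the 5 nearest were PRDM8 (0.27), SHBG (0.29), PRODH2 (0.30), RHBG (0.31) and LGR5 (0.31), with a median of 1.04 over genes with a symbol. PRDM8, a nuclear factor of neurons, had means of 1.81 ± 0.246 FPKM (Ujumqin) and 5.57 ± 0.804 FPKM (Hulunbuir) at day 25. SHBG, which encodes the plasma carrier of sex steroids, was at 3.22 ± 0.225 and 10.8 ± 2.17. All of these profiles share the same 12 libraries and their ages.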

How the data were processed

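The 12 libraries are 3 from each breed at each age. TRIzol was used to isolate RNA and Illumina protocols to make libraries, per the labels' protocols. Per the submitters' processing notes, cutadapt 1.9 and FastQC were used with the Oar_v3.1 genome. No aligner, counting program or strand setting is named in the labels or file headers (not given in the sources used here). The deposited table holds raw gene counts, per the file headers, which are whole numbers summing to 30464606 to 55455815 per library. It also holds FPKM made by the authors, in which 0 counts are written as 0.0001. Genes were named by the table's symbol, and where it had none by the NCBI gene number in its description through RefSeq (assembly ARS-UI_Ramb_v3.0, used for names only). Every library was matched to its columns by name.

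Genes with at least 1 FPKM in at least 3 of 12 libraries (14595) were tested with edgeR 4.0.16 in R 4.3.3 (TMM, quasi-likelihood, two-sided, Benjamini-Hochberg, threshold 0.05): breed within the 6 libraries of an age, age and interaction over 12. Standard errors were taken from log2 change and F (size of the change over root F). FPKM are as deposited, and log2 changes come from counts. The members, 15 gene lists, fits and naming rules were chosen with earlier results of these data known. Named were all members found, up to 3 genes per list (highest mean FPKM among called genes) and the 5 genes nearest to each profile, and not every gene so taken is printed. Alternatives used limma 3.58.1 and DESeq2 1.42.0. The fits were tested on simulated counts. Replicates correlated at 0.901 to 0.990 within a group and differed beyond counting noise (chi-square per degree of freedom 17.4 to 636). Each was treated as 1 sample, but spread beyond counting noise does not show that the libraries stem from different embryos. Same-numbered libraries of the 2 breeds deviated together at day 16 (correlations 0.189 to 0.356), far less at day 25 (0.031 to 0.059), and across ages in no common direction (-0.090 to 0.102). At both ages each Ujumqin library correlated best with the Hulunbuir library of its own number. These correlations are the only sign that numbers pair the libraries.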

Additional observations from a re-analysis of the deposited data

Results flagged for a closer look

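The breed difference in SOX3 per SOX2 had opposite signs at the 2 ages. The mean log2 ratio was lower in Hulunbuir at day 16 (log2 difference -1.25) and 0.91 higher at day 25, which is 2.16 log2 units apart. All 3 Hulunbuir libraries lay below the 3 Ujumqin libraries at day 16 and above them at day 25, which is what drew attention to it. The ratio was singled out after its values were seen, and such full separation fixes a permutation p at the smallest it can take, so no p is given and the difference between the ages counts as not tested. Hulunbuir day 16 replicate 2 enters it with 8 SOX3 counts. For PAX6 per SOX2 the same difference was 0.76, with groups that overlapped at both ages.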

How the results depend on the processing

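At day 16, 0 members were called under each alternative run (DESeq2 gave NEUROD4 no adjusted p), while the count over all genes moved from 3 to 1601 by DESeq2, 0 by limma on log2(FPKM + 1), 487 by voom with group weights and 2459 with a spread shared over 12 libraries. With the replicate block it was 293. Leaving out 1 library gave 0 to 200 genes, the 200 without Ujumqin replicate 3, and turned NEUROD4 to -0.47 (without Ujumqin replicate 1, and again without 2) or -1.82 and PAX6 to -0.17 (both without Hulunbuir replicate 3). Their highest values were 5.98 (without Ujumqin replicate 3) and 1.99 (without Hulunbuir replicate 2). At day 25 the shared spread gave 0 members and 2440 genes instead of 6716. Leaving out 1 library there gave 2 to 3 members and 4955 to 8117 genes. In Ujumqin, with age, leaving out 1 library gave 1 to 4 members and 8084 to 9588 genes. In Hulunbuir, members called with age went from 1 to 2 by DESeq2 and limma, 4 by voom and 0 with at least 5 FPKM in 3 libraries, a filter that NEUROD4 did not pass. Without 1 library, 1 to 2 members and 4129 to 6471 genes were called. For the interaction limma called 1 member. Without 1 library, 0 to 1 members and 1561 to 3337 genes were called, the low counts without Ujumqin day 25 replicate 2 or 3 or any Hulunbuir day 25 replicate, and SOX3 lay between -0.10 (without Hulunbuir day 16 replicate 2) and 0.97, PAX6 between -1.73 and 0.37 (without Hulunbuir day 16 replicate 3) and NEUROD4 between -3.73 (without Ujumqin day 16 replicate 3) and 3.86. The cause of these shifts was not tested. Scaling by total count moved the share of called genes that were higher from 50.6% to 80.3% at day 25, from 46.6% to 61.7% for age in Hulunbuir and from 46.3% to 73.4% for the interaction. The replicate block changed 1 member's call, NEUROD4 with age in Ujumqin (3.78, adjusted p = 0.02 by edgeR). At both ages each Ujumqin library correlated best with the Hulunbuir library of its own number, though weakly at day 25. At day 16, NEUROD4 lies at a depth of 0 to 25 counts.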
